A study of Mus musculus with 60 samples.

Results

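Plin4, Pdk4, Angptl4 and Cpt1a, 4 genes of lipid handling that are known for their induction by fasting, were followed in mouse striatum across antidepressant treatment and time. They are 4 of 19057 genes with a probe of a single symbol, and 6 probes stand for them among 34885. All probes annotated to the symbols were taken, with a named main probe for Plin4 and Angptl4 and the probe of the highest mean over the 60 arrays for Pdk4 and Cpt1a. The genes were chosen by earlier results on these same arrays: Plin4 was selected on its difference between the conditions, with tianeptine and fluoxetine above saline, and the other genes were put beside it with those results in view. Differences of Plin4 between conditions, and differences of any of these genes between tianeptine or fluoxetine and saline, are therefore described with their errors and without a test.

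Striatal RNA came from C57BL/6J mice of 6 to 10 weeks that received 1 intraperitoneal injection of tianeptine (20 mg/kg), fluoxetine (20 mg/kg), imipramine (10 mg/kg) or saline, or that stayed naive, and that were killed at 1, 2, 4 or 8 h. The saline and naive groups of each time were meant to take account of injection and time of day. Each of the 20 groups had 3 arrays with RNA pooled over 2 mice per array, so that the spread between arrays is one between pools. All mice were males with free access to food according to the study's methods, and no group was fasted. The arrays lay on 10 chips of 6, and no chip held tianeptine and saline, imipramine and saline, or tianeptine and fluoxetine of the same time. Of the medium spiny neuron markers, the defining genes of striatum, 9 of 9 measured genes lay above the common median signal of 7.57, whereas 2 of 9 adipocyte markers did.

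Plin4 encodes perilipin 4, a coat protein of lipid droplets, the organelles in which cells store triglyceride. Pdk4 encodes a kinase that inhibits the pyruvate dehydrogenase complex and so spares glucose, Angptl4 a secreted inhibitor of lipoprotein lipase, and Cpt1a the enzyme that admits long-chain fatty acids to mitochondria for oxidation. In liver, muscle and fat these genes are known targets of the PPAR receptors, which sense fatty acids, and several of them also respond to the glucocorticoid receptor. In brain such transcripts are found in glia and vessel cells as well as in neurons, and whole tissue cannot tell more RNA per cell of a type apart from more cells of that type.

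The start regions of the 2 genes whose signal changed with time are shown because both receptors act through short motifs in DNA. The windows, from RefSeq on build GRCm38.p6, hold the 250 bases before the start site, 5′ to 3′, and the capitals mark a TATAA box, a motif added after the sequences had been seen.
Plin4, chr17:56109783-56110032, minus strand: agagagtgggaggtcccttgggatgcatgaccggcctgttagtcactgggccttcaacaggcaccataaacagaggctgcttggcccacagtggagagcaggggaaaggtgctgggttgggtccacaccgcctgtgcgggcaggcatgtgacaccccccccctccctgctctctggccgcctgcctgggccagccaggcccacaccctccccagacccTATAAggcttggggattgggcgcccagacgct
Pdk4, chr6:5496279-5496528, minus strand: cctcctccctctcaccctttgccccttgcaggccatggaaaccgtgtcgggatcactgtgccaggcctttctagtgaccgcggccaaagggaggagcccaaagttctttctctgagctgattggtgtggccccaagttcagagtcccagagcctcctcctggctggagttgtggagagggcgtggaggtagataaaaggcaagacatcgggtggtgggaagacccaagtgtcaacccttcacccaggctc
The annotated spans of Plin4 and Cpt1a begin further upstream than the start sites used here, so that positions hold for these start sites alone. Windows were found for Plin4, Pdk4 and Cpt1a, 3 of the 4 genes. With 50 further bases after the start, they were searched on both strands for the glucocorticoid motif (AGAACA and TGTTCT with 3 bases between), its half-site TGTTCT, the PPAR motif (AGGTCA repeated after 1 base), its half-site AGGTCA, TGACGTCA and CACGTG, where each half-site also lies inside its full motif. The only match was AGGTCA in the Cpt1a window, at -94 from the start on the reverse strand. TATAA stood at -32 in Plin4. Among 32851 windows of the same length, 0.00913% held the full glucocorticoid motif, 19% its half-site, 0.0396% the full PPAR motif, 16.3% its half-site, 1.79% TGACGTCA, 7.15% CACGTG and 24.9% TATAA. No match says only that these letters are not in this window.

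Plin4 had its highest signals in tianeptine and fluoxetine mice at 2 to 8 h and its lowest in naive mice at 4 h. Signals are log2 values after quantile normalisation, so that 1 unit is a doubling. In tianeptine mice Plin4 measured 8.33, 8.58 and 8.61 at 1 h, 9.34, 9.89 and 9.58 at 2 h, 10.47, 9.69 and 9.52 at 4 h, and 9.70, 9.31 and 9.90 at 8 h. In fluoxetine mice it measured 8.31, 8.50 and 8.07 at 1 h, 9.32, 9.75 and 9.43 at 2 h, 9.88, 10.76 and 9.62 at 4 h, and 10.60, 8.93 and 9.03 at 8 h. At 2 and 4 h every array of both drugs lay above every saline array of its time, and 1 fluoxetine array stood far above the other 2 at 8 h. In imipramine mice Plin4 measured 8.02, 8.46 and 8.68 at 1 h, 8.85, 8.73 and 9.12 at 2 h, 8.93, 9.35 and 8.60 at 4 h, and 9.65, 9.01 and 9.08 at 8 h. In saline mice it measured 7.88, 8.18 and 8.13 at 1 h, 9.25, 8.34 and 8.63 at 2 h, 9.09, 8.68 and 8.61 at 4 h, and 9.75, 9.83 and 8.67 at 8 h. Imipramine and saline overlapped at all 4 times. In naive mice it measured 8.24, 8.19 and 8.17 at 1 h, 8.98, 8.06 and 8.00 at 2 h, 8.10, 7.87 and 7.90 at 4 h, and 8.78, 8.29 and 8.60 at 8 h. All naive arrays at 4 h lay below all arrays of the 4 injected conditions at that time.

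**Figure D1:**
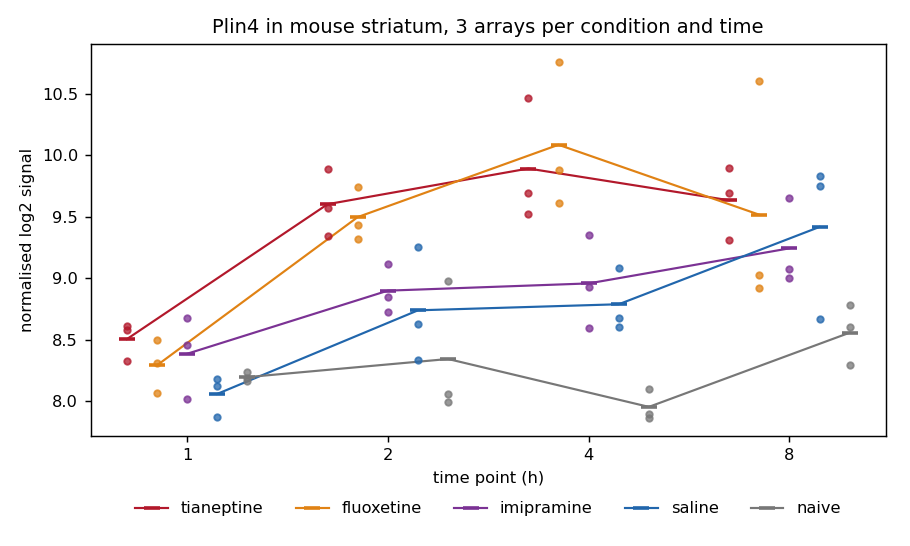
Normalised log2 signal of Plin4 (vertical axis) at the 4 time points in hours (horizontal axis) in tianeptine, fluoxetine, imipramine, saline and naive mice. Each point is 1 array of pooled RNA of 2 mice, bars are means of 3 arrays and lines join the means. At 2 and 4 h all tianeptine and fluoxetine arrays lie above all saline arrays, and at 8 h the saline mean of 9.42 comes close to them.

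Averaged over the times, the medians of the 12 arrays were 9.55 with tianeptine, 9.38 with fluoxetine, 8.89 with imipramine, 8.65 with saline and 8.18 in naive mice. Differences were estimated in a limma fit with a mean for each group and chip as a random block, so that they can depart slightly from differences of plain means. Plin4 was 0.69 ± 0.13 (SE) higher with tianeptine than with saline (95% confidence interval 0.42 to 0.96), or 1.61-fold, and 11 of 12 tianeptine arrays lay above the saline mean of their time. With fluoxetine the difference from saline was 0.65 ± 0.13 (0.38 to 0.92), with 10 of 12 arrays above, and with imipramine it was 0.15 ± 0.13 (-0.12 to 0.42), with 7 of 12 arrays above. Saline injection was itself followed by a Plin4 signal 0.45 ± 0.13 above that of naive mice (0.18 to 0.72), or 1.37-fold, in 8 of 12 arrays. The order was thus tianeptine, fluoxetine, imipramine, saline, naive. Tianeptine and fluoxetine did not differ beyond their spread (0.04 ± 0.13, -0.23 to 0.31), nor did imipramine and saline, whereas tianeptine stood 0.54 ± 0.13 (0.27 to 0.81) and fluoxetine 0.50 ± 0.13 (0.23 to 0.77) above imipramine.

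The estimates for tianeptine and fluoxetine against saline were highest at 2 and 4 h. Tianeptine exceeded saline in Plin4 by 0.50 ± 0.29 at 1 h, 1.09 ± 0.29 at 2 h, 1.03 ± 0.29 at 4 h and 0.14 ± 0.29 at 8 h. Fluoxetine exceeded saline by 0.21 ± 0.28, 0.83 ± 0.28, 1.39 ± 0.28 and 0.15 ± 0.28 at the same times, so that at 4 h its signal was 2.62-fold that of saline. Imipramine differed from saline by 0.38 ± 0.29, 0.23 ± 0.29, 0.32 ± 0.29 and -0.33 ± 0.29. At 8 h all 3 drugs overlapped with saline, whose arrays then measured 8.67 to 9.83. Saline differed from naive in Plin4 by -0.34 ± 0.28 at 1 h, 0.38 ± 0.28 at 2 h, 0.82 ± 0.28 at 4 h and 0.95 ± 0.28 at 8 h, and the values did not overlap at 4 h. Where arrays of one time shared a chip, Plin4 with fluoxetine exceeded saline by 0.43, 1.41, 2.08 and 0.36 at 1, 2, 4 and 8 h (1 pair of arrays each), and saline differed from naive by -0.04, 0.28, 0.98 and 1.54. Within chips tianeptine exceeded imipramine by 0.31, 1.16, 0.34 and 0.82. Tianeptine and imipramine shared no chip with saline of the same time, so that no such within-chip value could be given for them.

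**Figure D2:**
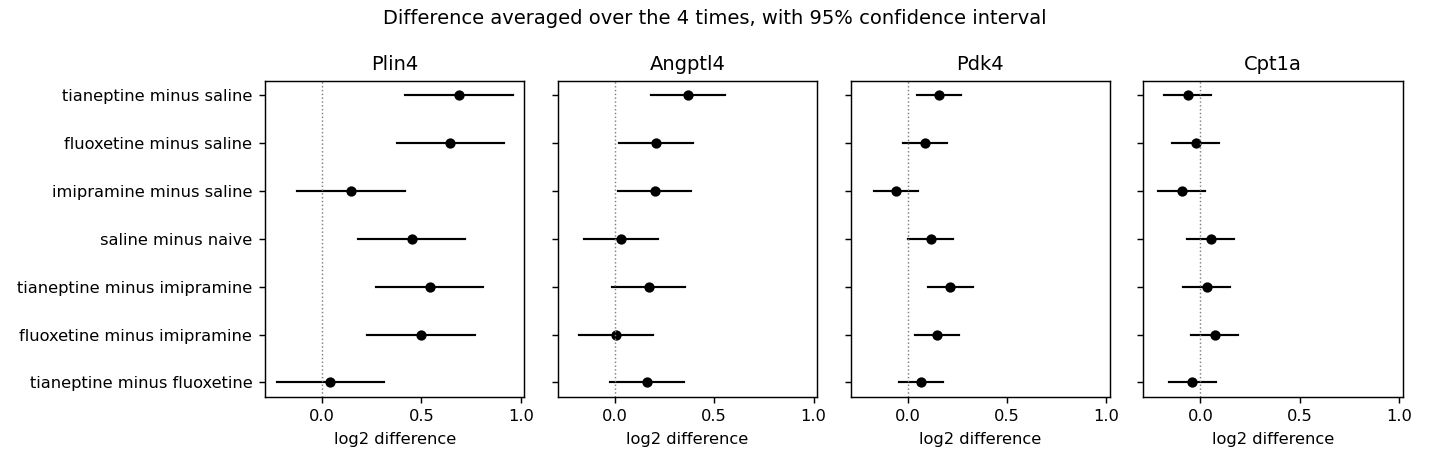
Log2 difference averaged over the 4 times (horizontal axis) for 7 pairs of conditions (rows), for Plin4, Angptl4, Pdk4 and Cpt1a. Points are limma estimates and lines 95% confidence intervals. Plin4 shows the widest spread of estimates, up to 0.69 for tianeptine minus saline, and all Cpt1a intervals include 0.

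Over all conditions Pdk4 ended lower than it began, unlike Plin4, with means of 9.01 at 1 h, 9.09 at 2 h, 8.88 at 4 h and 8.77 at 8 h. In tianeptine mice Pdk4 measured 9.08, 9.06 and 9.31 at 1 h, 9.32, 9.44 and 9.51 at 2 h, 9.11, 8.87 and 8.66 at 4 h, and 8.73, 8.90 and 8.91 at 8 h. In saline mice it measured 9.03, 9.02 and 9.06 at 1 h, 9.04, 9.28 and 8.84 at 2 h, 8.799, 8.88 and 8.69 at 4 h, and 9.004, 8.93 and 8.57 at 8 h. All tianeptine arrays exceeded all saline arrays at 2 h, and they overlapped at the other times. Over the 12 arrays of a condition, Pdk4 ran between 8.75 and 9.40 with fluoxetine (median 8.98), 8.68 and 9.14 with imipramine (8.82), 8.57 and 9.28 with saline (8.97) and 8.52 and 9.29 in naive mice (8.81). The tianeptine difference from saline in Pdk4 was 0.41 ± 0.12 (0.17 to 0.65) at 2 h, and averaged 0.16 ± 0.06 (0.05 to 0.27) over the times. With fluoxetine the average difference was 0.09 ± 0.06 (-0.02 to 0.20).

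Angptl4 had its highest signals with tianeptine and lay near saline in naive mice. In tianeptine mice the main probe of Angptl4 measured 8.999, 8.70 and 8.77 at 1 h, 8.52, 8.92 and 9.10 at 2 h, 9.46, 8.74 and 8.51 at 4 h, and 8.9999, 9.18 and 8.93 at 8 h. In saline mice it measured 8.56, 8.49 and 8.64 at 1 h, 8.98, 8.20 and 8.43 at 2 h, 8.54, 8.56 and 8.34 at 4 h, and 8.60, 9.03 and 8.40 at 8 h. The groups were separate at 1 h and overlapped later. Over 12 arrays it ran between 8.32 and 9.20 with fluoxetine (median 8.66), 8.18 and 9.23 with imipramine (8.76) and 8.20 and 8.84 in naive mice (8.50). Averaged over the times, Angptl4 stood 0.37 ± 0.09 (0.18 to 0.56) above saline with tianeptine, in 11 of 12 arrays, and 0.21 ± 0.09 (0.02 to 0.39) with fluoxetine, in 9 of 12. Unlike Plin4, Angptl4 had imipramine at the level of fluoxetine, with a difference of 0.01 ± 0.09 for fluoxetine against imipramine (-0.18 to 0.19). The other Angptl4 probe was dimmer, with 7.13 to 7.85 over all arrays, and gave -0.03 ± 0.06 with tianeptine and -0.12 ± 0.06 with fluoxetine, so that the Angptl4 difference rests on 1 probe. The probes correlated at r = 0.11 over the 20 group means.

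Cpt1a stayed near the lower end of the signals. Its main probe ran between 6.92 and 7.64 with tianeptine (median 7.32), 6.97 and 7.66 with fluoxetine (7.34), 7.07 and 7.49 with imipramine (7.24), 7.14 and 7.52 with saline (7.35) and 7.01 and 7.77 in naive mice (7.24), with its mean of 7.31 below the common median. Its average differences from saline were -0.06 ± 0.06 with tianeptine (-0.18 to 0.05) and -0.02 ± 0.06 with fluoxetine (-0.14 to 0.09). The other Cpt1a probe ran between 7.04 and 7.62 and the probes correlated at r = -0.09 over group means, and such dim probes can miss a change.

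**Figure D3:**
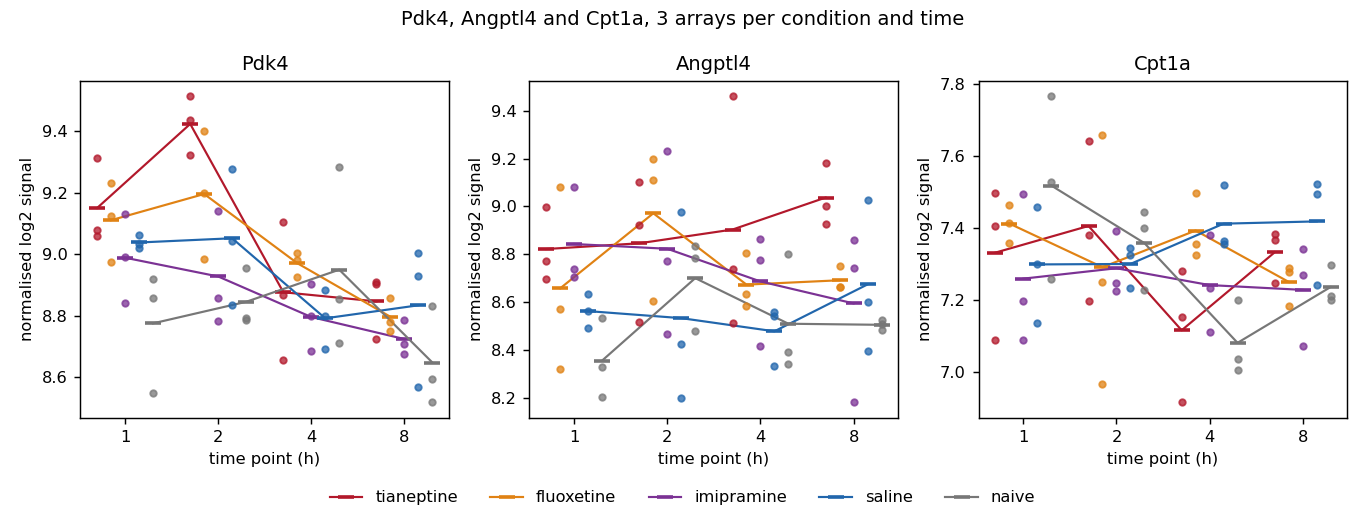
Normalised log2 signal (vertical axes, each with its own range) of Pdk4, Angptl4 and Cpt1a main probes at the 4 time points in hours, in tianeptine, fluoxetine, imipramine, saline and naive mice. Points are single arrays, bars means of 3 arrays, and lines join the means. Pdk4 is highest with tianeptine at 2 h, between 9.32 and 9.51, and Cpt1a stays between 6.92 and 7.77.

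Calls across all 45281 probes give the scale of these comparisons, at an adjusted p under 0.05. The F test over conditions called 0.307% of probes, tianeptine against saline on the average 0.0265%, and fluoxetine against saline 0%. The 4 genes were selected with these contrasts in view, so that no call is given for them here. In the comparisons that the choice did not use, Pdk4, Angptl4 and Cpt1a gave no call. Imipramine against saline called 0% of probes, and the estimates were -0.06 ± 0.06 for Pdk4, 0.20 ± 0.09 for Angptl4 and -0.10 ± 0.06 for Cpt1a (adjusted p = 1.00 each). Saline against naive called 0.00883%, and the estimates were 0.12 ± 0.06 for Pdk4 (adjusted p = 0.891), 0.03 ± 0.09 for Angptl4 (1.00) and 0.05 ± 0.06 for Cpt1a (0.988).

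Between drugs, tianeptine against imipramine called 0.115% of probes, fluoxetine against imipramine 0.00442% and tianeptine against fluoxetine 0%. Pdk4 was 0.22 ± 0.06 higher with tianeptine than with imipramine (0.10 to 0.33), in 11 of 12 arrays, which missed the threshold (adjusted p = 0.113). Angptl4 was 0.17 ± 0.09 higher with tianeptine than with imipramine (-0.02 to 0.36, adjusted p = 0.707) and 0.16 ± 0.09 higher than with fluoxetine (-0.02 to 0.35, adjusted p = 1.00). At single times, 20 such comparisons called 0.00309% of probes in all and none for Pdk4, Angptl4 or Cpt1a. The nearest was Pdk4 with tianeptine against imipramine at 2 h, 0.50 ± 0.11 higher (adjusted p = 0.103). Doses differed, with imipramine given at 10 mg/kg and tianeptine and fluoxetine at 20 mg/kg.

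Averaged over the conditions, Plin4 rose and Pdk4 fell between 1 and 8 h. At 2 h the Pdk4 estimate was still 0.08 above 1 h, in the same direction as Plin4. Over all conditions the F test over the 4 times called 1.46% of probes, and both genes passed it (Plin4 adjusted p = 3.02e-07, Pdk4 adjusted p = 0.000163), whereas Angptl4 (0.878) and Cpt1a (0.734) did not. Relative to 1 h, Plin4 rose by 0.73 ± 0.12 at 2 h (adjusted p = 0.00286), 0.85 ± 0.12 at 4 h (2.04e-05) and 0.99 ± 0.12 at 8 h (1.61e-07), and all 15 arrays at 8 h lay above the 1 h mean. The shares of probes called higher were 0.00883% at 2 h, 0.0552% at 4 h and 0.636% at 8 h. Pdk4 fell by 0.24 ± 0.05 at 8 h (adjusted p = 0.00386), and 0 of 15 arrays lay above the 1 h mean. The shares of probes called lower were 0.00663% at 2 h, 0.0972% at 4 h and 0.696% at 8 h, and Pdk4 did not pass at 2 or 4 h (adjusted p = 0.924 and 0.647). The Plin4 call at 2 h was lost without a chip term (adjusted p = 0.0607) and with z-scores within each chip (0.250), and the call at 4 h with z-scores (0.280).

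Within conditions time passed for Plin4 in fluoxetine mice, which stood 1.28 ± 0.28 at 2 h, 1.93 ± 0.29 at 4 h and 1.41 ± 0.29 at 8 h above their own 1 h value (time F adjusted p = 0.000967, with 0.0618% of probes called). With tianeptine Plin4 was 1.25 ± 0.28, 1.29 ± 0.29 and 1.12 ± 0.29 above its 1 h value at 2, 4 and 8 h (adjusted p = 0.0538, 0.095% called). In saline mice it was 0.66 ± 0.28, 0.75 ± 0.29 and 1.47 ± 0.29 above (adjusted p = 0.111, 0.0552% called). Imipramine (0.51 ± 0.28, 0.69 ± 0.29 and 0.76 ± 0.29, with 0.0243% called) and naive mice (-0.06 ± 0.28, -0.41 ± 0.29 and 0.18 ± 0.29, with 0.00883% called) did not pass for Plin4 (adjusted p = 1.00 each). The fluoxetine call was lost with z-scores within each chip (adjusted p = 0.773). For Pdk4, time passed within tianeptine mice alone (adjusted p = 0.0254), where it stood 0.28 ± 0.11 above its 1 h value at 2 h and 0.32 ± 0.12 below it at 8 h. This Pdk4 call was lost in 5 alternative settings and without any one of 6 tianeptine arrays (all 3 at 2 h, replicate 2 at 4 h, replicates 1 and 2 at 8 h), and adjusted p lay between 0.00539 and 0.182 when 1 array was left out. The test of condition by time called 0.00221% of probes and none of the 4 genes (adjusted p = 1.00 each), so that a different time course between conditions was not shown. These genes were chosen with tianeptine and fluoxetine values in view, and the tests within those drugs use the same arrays. The test of condition by time compares conditions as well. None of these tests is fully independent of the choice. Within every condition, the arrays at 4 and 8 h lay on other chips than those at 1 h.

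Other lipid and fasting genes were set beside the 4. Of 111 listed genes in 10 roles, 105 had a named probe. None of the 105 passed in the 7 comparisons of a pair of conditions on the average. These comparisons called between 0% and 0.115% of all probes, so that the lack of calls in a list of this size says little. Their median difference was 0.01 for tianeptine against saline, beside 0.00 over all probes, and the highest and lowest were 0.23 and -0.18. Among the lipid droplet proteins, tianeptine minus saline was 0.14 ± 0.06 for Plin2, the droplet coat protein of most tissues, -0.03 ± 0.06 for Plin3 and -0.01 ± 0.05 for Plin5 (adjusted p = 0.873, 0.999 and 0.999). Among the kinases of pyruvate dehydrogenase it was 0.06 ± 0.06 for Pdk1, -0.18 ± 0.06 for Pdk2 and 0.01 ± 0.06 for Pdk3 (adjusted p = 0.999, 0.610 and 0.999). The carnitine transferases gave 0.12 ± 0.05 for Cpt1b, -0.05 ± 0.05 for Cpt1c and 0.01 ± 0.04 for Cpt2 (adjusted p = 0.864, 0.996 and 0.999). Lpl, the lipase that Angptl4 inhibits, gave -0.03 ± 0.09, and Gpihbp1, its anchor on capillaries, 0.02 ± 0.07 (adjusted p = 0.999 each).

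A few of them passed in the tests over time. Over all conditions 5 of the 105 genes passed the F test over times, against 1.46% of all probes, namely Pdp1, Bdh1, Rxrg, Elovl6 and Adipor2. Listed genes stand by their brightest probe, whereas all probes include many dim ones, so that these shares are not alike. Among probes at or above the common median, 5 of 91 listed genes passed, against 788 of 22134 probes. At 8 h against 1 h, 1 rose and 3 fell, against 0.636% of all probes called higher and 0.696% called lower. With median centring 1 of the 105 passed in either test, against 212 of 45281 probes at 8 h and 230 in the F test. Pdp1, the phosphatase that reactivates pyruvate dehydrogenase and thus opposes Pdk4, fell by 0.38 ± 0.04 (adjusted p = 2.67e-08), in the same direction as Pdk4. Elovl6, a fatty acid elongase, fell by 0.28 ± 0.05 (adjusted p = 0.000698), and Rxrg, a partner of the PPAR receptors, fell by 0.28 ± 0.06 (adjusted p = 0.00898). Bdh1, an enzyme of ketone body use, rose by 0.23 ± 0.05 (adjusted p = 0.00279). Adipor2, an adiponectin receptor, passed in no single comparison with 1 h. Pdp1 and Adipor2 were also the 2 of 105 called by the F test over conditions (adjusted p = 0.0114 and 0.0109), against 0.307% of all probes. Among probes at or above the common median it called 2 of 91 listed genes, against 161 of 22134 probes. With median centring, no chip term, z-scores or a per-probe analysis of variance, 0 of the 105 passed that test. Those settings called 31 to 38 of 45281 probes. With a fixed chip block 5 of the 105 passed, against 232 of 45281 probes. None of the other droplet proteins, kinases, transferases and lipase genes given above passed at 8 h against 1 h.

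Genes known to be induced by glucocorticoids outside lipid metabolism lay mostly above 0 with tianeptine against saline, and likewise with saline against naive. Of 20 such genes, all 20 had a probe. For tianeptine against saline 18 of 20 were positive, with a median of 0.20 beside 0.00 over all probes, and 2 passed, against 0.0265% of all probes: Fkbp5, a co-chaperone of the glucocorticoid receptor (0.27 ± 0.05, adjusted p = 0.0341), and Errfi1, an inhibitor of epidermal growth factor receptor (0.29 ± 0.06, adjusted p = 0.0376). Both calls were lost without a chip term and with z-scores within each chip, where 0 probes of the array passed, and at least 1 of them with median centring, where 1 probe passed. For fluoxetine the median was 0.11, with 15 of 20 positive, for imipramine -0.01, with 10 of 20, and for saline against naive 0.19, with 18 of 20, and none passed. The list was written with earlier results of these arrays in view, so that its counts and calls are no independent evidence. The comparisons with saline share the saline arrays.

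**Figure D4:**
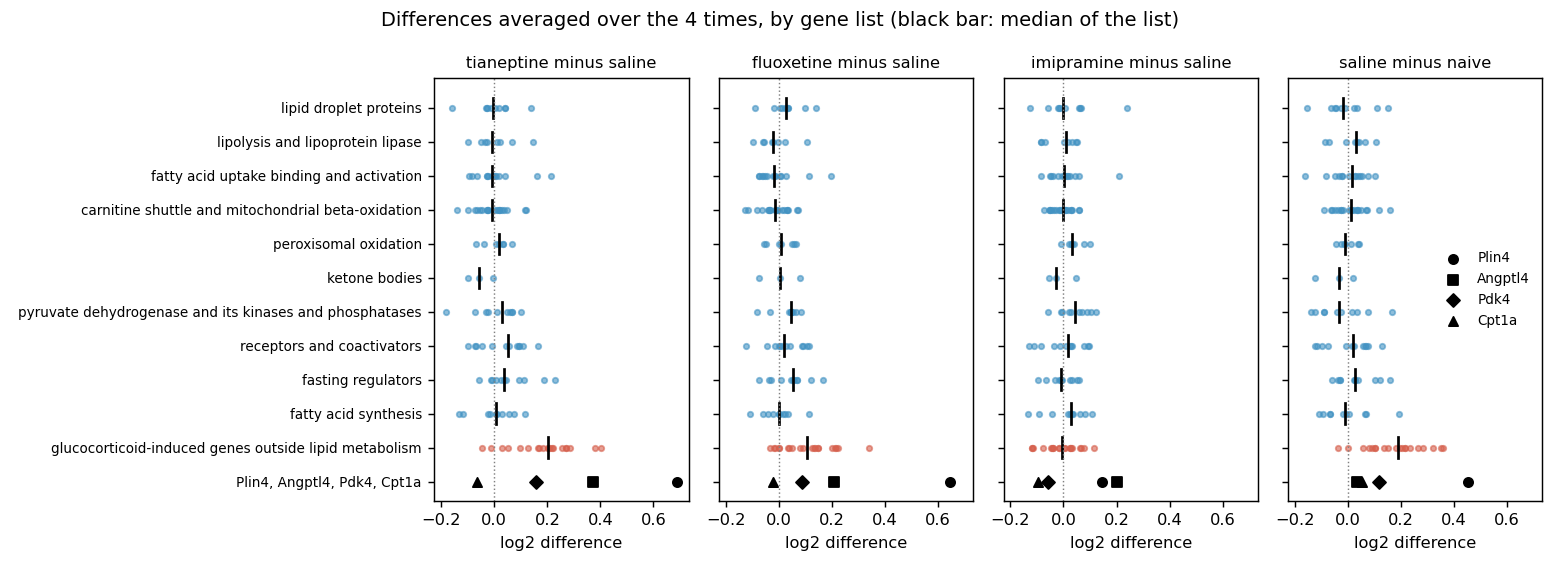
Log2 difference averaged over the 4 times (horizontal axis) for tianeptine, fluoxetine and imipramine minus saline and for saline minus naive, by gene list (rows). Small points are genes, black bars list medians, and black symbols in the last row Plin4, Angptl4, Pdk4 and Cpt1a. The lipid and fasting lists centre near 0, and the glucocorticoid-induced list has medians of 0.20, 0.11, -0.01 and 0.19.

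Genes with a pattern like that of Plin4 were looked for. Over the 20 group means, and among 11741 genes at or above the common median, the genes most like Plin4 were Mertk (r = 0.93), a phagocytosis receptor, Hif3a (0.92), a subunit of hypoxia-inducible factors, Pnpla2 (0.91), the main triglyceride lipase of lipid droplets, Fkbp5 (0.90), Sult1a1 (0.89), a sulphotransferase, Xdh (0.88), xanthine dehydrogenase, Itpk1 (0.85), an inositol phosphate kinase, Slc2a1 (0.82), the glucose transporter of brain capillaries, Spink8 (0.82) and Tsc22d3 (0.82), the glucocorticoid-induced leucine zipper protein. Hif3a, Fkbp5, Sult1a1, Xdh and Tsc22d3, 5 of the 10, stand on the glucocorticoid-induced list of 20 genes, and Pnpla2 on the lipid lists. That list was drawn up with results of these arrays known, so that the count is no independent evidence of likeness. The group means share chips and the time course, so that these correlations are descriptions. Of the 10 genes, 8 were also among the 10 most alike by rank correlation and 7 over the 60 arrays with chip means removed. Pnpla2 differed by 0.14 ± 0.06 between tianeptine and saline (adjusted p = 0.811). Hif3a rose by 0.76 ± 0.10 at 8 h against 1 h, against 0.99 for Plin4. Both genes were named for their likeness to Plin4 on these arrays, so that a shared rise follows in part from the choice.

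**Figure D5:**
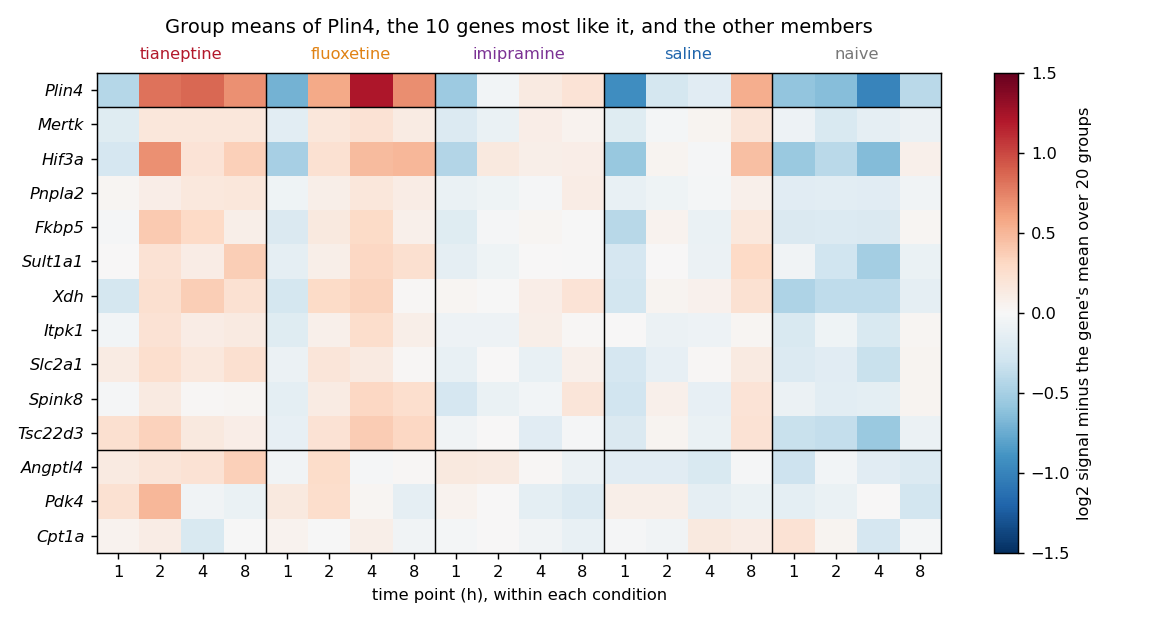
Group means (fitted, log2 signal minus the mean of each gene over the 20 groups, colour scale) of Plin4, the 10 genes most like it, Angptl4, Pdk4 and Cpt1a (rows) at 4 time points in hours within tianeptine, fluoxetine, imipramine, saline and naive mice (columns). At 1, 2 and 4 h in naive mice Plin4 and all 10 genes lie below their own means, and at 8 h some lie above. The 10 genes were picked for likeness to Plin4 over these same group means, so that shared lows follow in part from the choice.

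The 4 genes did not move as 1 unit. Over group means Plin4 correlated with Angptl4 at r = 0.57, with Pdk4 at 0.09 and with Cpt1a at 0.05, and Pdk4 with Angptl4 at 0.41. Among the 60 arrays, with group means removed, Plin4 and Angptl4 gave r = 0.40, Pdk4 and Angptl4 0.46, and Plin4 and Pdk4 0.19. With chip effects removed as well, the values were 0.27, 0.38 and 0.18 in the same order. Condition accounted for 35.0% of the sum of squares of Plin4 and time for 28.7%, and 21.9% lay within groups. For Pdk4 the shares were 19.9%, 30.5% and 33.9%, for Angptl4 24.7%, 3.38% and 61.5%, and for Cpt1a 4.62%, 6.62% and 62.1%. The interaction of condition and time held 14.3% for Plin4, 15.7% for Pdk4, 10.4% for Angptl4 and 26.7% for Cpt1a. Chip taken alone, which overlaps with these shares, held 9.42%, 24.1%, 17.6% and 22.2% in the same order. Plin4 was selected on condition, so that its condition share is a description. Angptl4 was most like Cdkn1a (r = 0.90 over group means), a cell cycle inhibitor, and Pdk4 most like Kmt5a (0.90), a histone methyltransferase, and Amer2 (0.90), genes looked up after the values had been seen. Of the 10 genes most like Angptl4, 7 were also among the 10 by rank correlation and 6 over the arrays, and of those most like Pdk4, 2 and 5.

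Markers of other cells were set beside these genes. The summed signal of 10 endothelial markers ran between 13.82 and 14.49 with tianeptine, 13.76 and 14.35 with fluoxetine, 13.82 and 14.36 with imipramine, 13.77 and 14.31 with saline and 13.79 and 14.35 in naive mice, with 9 of 10 at or above the common median. With group means removed it correlated over the 60 arrays with Plin4 (r = 0.51), Angptl4 (0.50), Pdk4 (0.35) and Cpt1a (0.31). Its part in the results was not tested, and chip effects were left in all marker correlations. Slc2a1 is on that list as well. Microglial (r = 0.42) and pericyte, smooth muscle and meningeal markers (0.36) also correlated with Plin4, and red blood cell markers, 3 measured genes, with Angptl4 (0.42). Cortical neuron markers gave 0.25 with Plin4, whereas oligodendrocyte (-0.22) and astrocyte markers (-0.10) went the other way. For Pdk4, astrocyte markers gave 0.31 and microglial markers -0.28. The summed adipocyte markers ran between 10.38 and 10.58 with tianeptine and between 10.44 and 10.58 with saline, with r = 0.17 to Plin4. Choroid plexus markers differed widely between arrays, with sums of 11.82 to 16.09, and had r = 0.01 to Plin4.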

How the data were processed

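RNA of striatum was hybridised to Illumina MouseWG-6 v2 arrays, and all 60 arrays were used. The main values were the deposited log2 signals, which the authors had not normalised between arrays (array medians 6.71 to 8.76). Background subtraction is named in the study's methods, but the sources used here do not say if these values had it. The deposited series matrix, log2 values that the authors quantile normalised (median 7.72), served as an alternative. All signal columns were read and 0 were left out. Detection values were not used here.

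Signals were quantile normalised, and all 45281 probes entered a limma 3.58.1 fit (R 4.3.3, statmod 1.5.0) with 20 group means and chip as a random block (correlation 0.201). Moderated 2-sided p-values were corrected separately for every comparison (Benjamini-Hochberg), called at 0.05, and intervals were 95%. Of the probes, 34885 had 1 symbol, 18 several and 10378 none. A listed gene was represented by its brightest probe. Levels of different probes were not compared. The members and lists were chosen with earlier results of these data known, and genes were named by role in those lists, by passing a test, or as the 10 most like Plin4. The number of arrays limits the precision, and p-values measure the spread between pools of mice. The pipeline was tested on simulated data. Alternatives were other normalisations, chip and replicate terms, filters, array weights, probes and tests, and leaving out each array with the chip correlation kept.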

Additional observations from a re-analysis of the deposited data

Results flagged for a closer look

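Of 216 pairs of contrasts looked at, 14 were marked because every array of one group moved one way and every array of the other the opposite way. Values are differences of plain means in log2 units, and none of these pairs was tested by itself. The same count was not made for other probes, and several marked pairs share arrays, so that nothing is read from the number marked. Groups of 3 arrays are too small for a test of outlying samples.

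For Plin4, 4 h minus 1 h was 1.39 with tianeptine, 1.79 with fluoxetine, 0.57 with imipramine and 0.73 with saline, each against -0.24 in naive mice. Saline minus naive in Plin4 was -0.14 at 1 h, against 0.83 at 4 h and 0.86 at 8 h. For Pdk4, saline minus naive was 0.26 at 1 h and -0.16 at 4 h. At 4 h the naive arrays measured 8.71, 9.29 and 8.86 and overlapped with saline, and the pair that shared a chip gave 0.09.

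For Cpt1a, 4 h minus 1 h was -0.22 with tianeptine against 0.11 with saline, and 0.11 with saline against -0.44 in naive mice. Saline minus naive in Cpt1a was -0.22 at 1 h and -0.058 at 2 h, against 0.33 at 4 h and 0.18 at 8 h. Fluoxetine minus saline in Cpt1a was 0.11 at 1 h and -0.17 at 8 h.

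The joint test of condition by time gave an adjusted p of 1.00 for Plin4, Pdk4 and Cpt1a. Naive arrays at 4 h shared no chip with naive arrays at 1 h.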

How the results depend on the processing

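The average differences of Plin4 from saline, and of saline from naive, kept their sign under every alternative run. They lay between 0.64 and 0.72 for tianeptine against saline, 0.60 and 0.69 for fluoxetine, 0.11 and 0.18 for imipramine and 0.41 and 0.49 for saline against naive. When 1 array was left out they lay between 0.61 and 0.73, 0.52 and 0.72, 0.07 and 0.19, and 0.40 and 0.53 in the same order. Tianeptine minus fluoxetine, 0.04 in the reported fit, turned to -0.0064 with z-scores, -0.020 without tianeptine replicate 1 at 4 h, and -0.034 and -0.0024 without fluoxetine replicates 2 and 3 at 8 h. Time over all conditions passed for Plin4 and Pdk4 under every alternative, and without any one array (adjusted p 4.37e-08 to 2.41e-06 for Plin4, 4.67e-05 to 0.000735 for Pdk4). For Plin4 in fluoxetine mice, z-scores within each chip ended the call (adjusted p = 0.773), and leaving out 1 array gave 0.000191 to 0.0281. For Pdk4 in tianeptine mice the call was lost with median centring (0.631), no chip term (0.102), a fixed chip block (0.0704), z-scores (0.547) and array weights (0.0566), and leaving out 1 array gave 0.00539 to 0.182. The cause was not tested. The other Angptl4 probe turned the sign, with -0.027 for tianeptine and -0.12 for fluoxetine against saline.

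The replicate numbers share a chip in part, and same-numbered arrays on other chips deviated together at a median r of 0.02, so that they name arrays and pair none. With the replicate block added, time in Plin4 within tianeptine mice passed (adjusted p = 0.0384, against 0.0538 in the reported fit), and it changed no other call of the 4 genes. Time in Plin4 within tianeptine mice also passed with a fixed chip block (0.0162), among brighter probes (0.0458), without tianeptine replicate 2 at 8 h (0.0397) and without tianeptine replicate 3 at 4 h (0.0440), and within saline mice with a fixed chip block (0.0030) and without saline replicate 3 at 8 h (0.0290). Without tianeptine replicate 3 at 4 h, Pdk4 passed between tianeptine and imipramine. Cpt1a was not among the brighter probes. Any probe in place of the brightest raised the lipid and fasting genes called at 8 h against 1 h to 5, with Pdhb. A fixed chip block raised them to 7, where 889 of 45281 probes were called. The methods' t-test called 1291 to 2028 probes at an unadjusted 0.05 in each of 12 comparisons of a drug with saline, and 1 after adjustment, in 1 of them. Tianeptine against saline on the average called 12 probes in the reported fit, 1 with median centring, 0 without a chip term, 0 with z-scores and 21 with a fixed chip block. In the same order tianeptine against imipramine called 52, 8, 19, 1 and 116, the F test over conditions 139, 36, 38, 38 and 232, and time over all conditions 659, 230, 301, 993 and 992. At 8 h against 1 h, 603 probes were called, 212 with median centring and 279 without a chip term. The number of arrays and dim signals near the common median limit what these values can show.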
